A study of Mus musculus with 27 samples.

Results

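The mitochondrially encoded genes are the 37 genes of the mitochondrial genome, and they were followed in mouse thyroid gland organoids over days of culture and after irradiation. They were chosen by gene symbol alone, as CYTB, ND1 to ND6 with ND4L, COX1 to COX3, ATP6, ATP8, mt-Rnr1, mt-Rnr2 and the transfer RNA (tRNA) symbols that start with Trn. The rule found 37 of 50559 genes in the count table, of which 13 encode proteins, 2 are ribosomal RNAs (rRNAs) and 22 are tRNAs.

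The organoids were grown in Matrigel from thyroid glands of C57BL/6 mice aged 8 to 12 weeks, and all groups shared the same medium with EGF, FGF2, B27 and the ROCK inhibitor Y27632. Groups without irradiation (0 Gy) were collected at days 5, 7 and 11, and groups that received 2, 4 or 7 Gy of photons after 5 days of growth were collected at days 7 and 11. Each of the 9 groups held 3 libraries, 1 from each of 3 cultures named mTG11, mTG12 and mTG14, and every value triplet below is in that order. The labels number 3 mice across all groups, while the series' design text speaks of 4 mice. Libraries were made with Smart3SEQ, which primes on stretches of A and sequences the 3′ end of a transcript.

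Mitochondria keep a small circular genome that encodes core subunits of the respiratory chain together with the rRNAs and tRNAs needed to translate them. It is transcribed from both strands into long precursors, and enzymes cut the precursors at the tRNAs, which lie between most of the other genes. The mRNAs then receive short A tails, while nuclear genes supply the remaining subunits, the ribosomal proteins and the factors that copy, transcribe and process this genome. Thyroid cells are known to generate hydrogen peroxide for the iodination step of hormone synthesis.

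In GRCm39 the 37 genes lie within 16299 bases, 28 of them on the plus strand and 9 on the minus strand, the latter being ND6 and 8 tRNAs. The annotated ends of 3 protein-coding genes are shown because these genes carried changes described below. Where the mature mRNAs end, which a 3′ end assay reads, was not analysed here. Each line gives the last 30 bases of the gene in lower case and the next 20 bases in capitals, all from the plus strand, at MT:6843-6892 for COX1, MT:15259-15308 for CYTB and MT:11515-11564 for ND4.
COX1: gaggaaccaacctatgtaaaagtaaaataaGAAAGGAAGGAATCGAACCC
CYTB: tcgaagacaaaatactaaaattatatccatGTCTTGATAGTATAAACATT
ND4: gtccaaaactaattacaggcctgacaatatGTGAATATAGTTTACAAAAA
CYTB and ND4 stop at a lone T beyond whole codons, as COX3 does, and the A tail is known to complete such a stop codon. The COX1 gene ends in a full stop codon and runs into TrnS1 on the opposite strand, whose gene starts at position 6870 of the plus strand. A pair of tRNAs that moved in opposite directions with culture time, TrnL1 at MT:2676-2750 and TrnD at MT:6942-7011, is shown whole.
TrnL1: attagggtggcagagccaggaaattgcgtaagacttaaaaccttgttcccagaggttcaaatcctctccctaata
TrnD: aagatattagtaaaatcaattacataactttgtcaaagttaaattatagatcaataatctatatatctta
TrnL1 lies directly between mt-Rnr2, which ends at 2675, and ND1, which starts at 2751. TrnD lies between TrnS1 and COX2. The tRNA genes measured 59 to 75 bases and the reads 75 bases, so a read counted for a tRNA can extend into a neighbour.
The rRNAs are not known to carry long A tails, but their sequence holds runs of A, and the longest is capitalized here, for mt-Rnr1 in MT:713-772 and for mt-Rnr2 in MT:1462-1521.
mt-Rnr1: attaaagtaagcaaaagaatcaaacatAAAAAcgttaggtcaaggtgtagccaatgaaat
mt-Rnr2: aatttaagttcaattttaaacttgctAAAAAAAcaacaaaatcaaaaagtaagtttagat
COX1 holds a run of the same length as mt-Rnr2. Where in these genes the reads started was not analysed here.

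Library totals ranged from 2528866 to 5723150 estimated counts with a median of 3758142, and 3 counts, the smallest amount taken as detectable, stood for 0.524 to 1.19 CPM, the count of a gene divided by its library total and set to the same scale in all libraries. Epithelial markers summed to between 4592 and 14538 CPM in every library. Among thyrocyte markers, Foxe1 and Nkx2-1 had counts in every library, whereas Slc5a5, Tshr and Pax8 were at 0 counts in 14 to 21 of 27 libraries, and Tg averaged 2.74 CPM. Duox2, an oxidase that makes hydrogen peroxide, went from 0.515 CPM at day 5 to 64.3 CPM at day 11 without irradiation. The organoids were therefore epithelial by their markers, with low transcripts of the mature thyroid hormone machinery. In bulk RNA, fewer cells of a type and less RNA per cell cannot be told apart.

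All 37 genes had at least 10 counts summed over the libraries, and 36 had counts in each library, the exception being TrnY. The rRNAs dominated. Over the 27 libraries mt-Rnr2 averaged 40538 CPM and mt-Rnr1 18775 CPM, while the most counted mRNA, COX1, averaged 2731 CPM. Most other mRNAs averaged between 1278 CPM (ND1) and 1657 CPM (COX2). Lower levels were found for ND5 with 454 CPM, ND3 with 442 CPM, ATP8 with 168 CPM, ND4L with 25.2 CPM and ND6, the only mRNA on the minus strand, with 8.04 CPM. Divided by gene length, the levels of the mRNAs were highest for COX2 (2423 CPM per kb), ATP6 (2019) and COX3 (1794) and lowest for ND4L (84.9) and ND6 (15.5). A 3′ end assay does not scale with length, and ATP8 and ND4L are known to share an mRNA with the genes that follow them, ATP6 and ND4, so these values describe counts at each gene. The tRNA rows were small, from 0.404 CPM for TrnY to 81.6 CPM for TrnL1.

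The share of all counts that fell on the mitochondrial genome was higher on later days of culture. Without irradiation it was 4.12%, 3.81% and 5.41% at day 5, 6.21%, 7.28% and 8.16% at day 7, and 9.91%, 8.56% and 10.4% at day 11. The 3 days did not overlap, and the share was higher at the later day in 3 of 3 cultures for each pair of days. The means were 4.44% ± 0.852 (SD, n = 3), 7.22% ± 0.976 and 9.63% ± 0.961, so the share at day 11 was 2.17 times that at day 5. No test was made on the summed share.

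**Figure D1:**
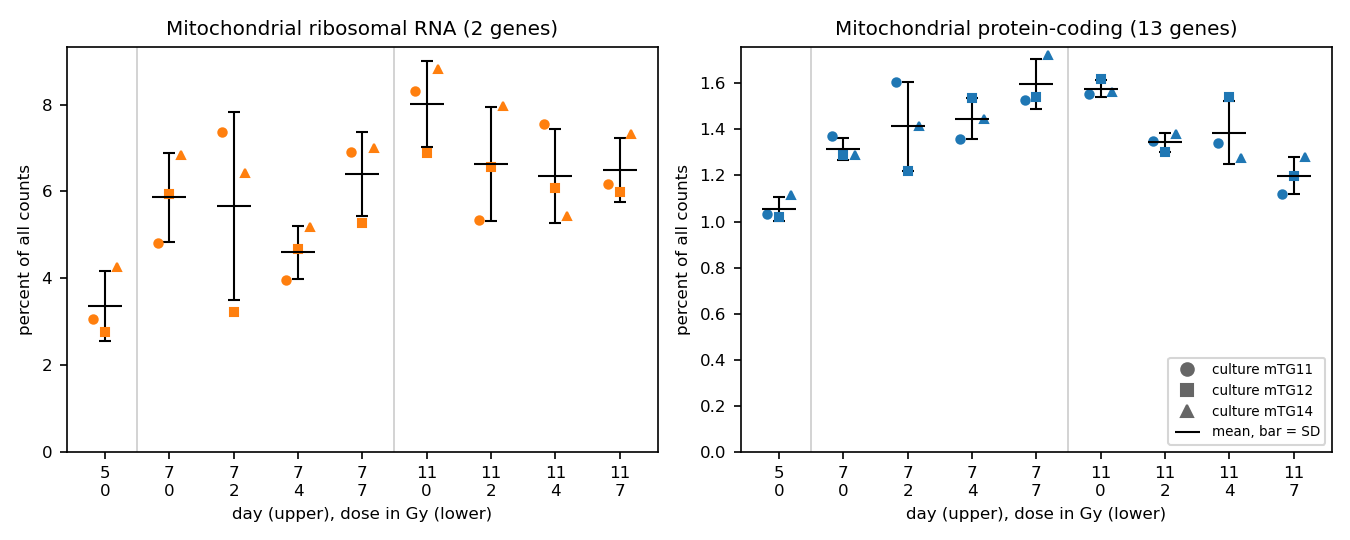
Percent of all counts on the 2 mitochondrial ribosomal RNAs (left) and the 13 mitochondrial protein-coding genes (right) in each library, by day and dose, with symbols for the 3 cultures and the mean and SD of each group. Both are higher at day 11 than at day 5 without irradiation, and the 7 Gy groups of the right panel lie above 0 Gy at day 7 and below it at day 11.

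The difference between days was larger for the rRNAs than for the mRNAs. The 2 rRNAs, the cores of the small and large mitochondrial ribosomal subunits, took 3.36% ± 0.801 (SD, n = 3) of all counts at day 5, 5.86% ± 1.02 at day 7 and 8.01% ± 0.997 at day 11. The 13 protein-coding genes took 1.06% ± 0.0521, 1.32% ± 0.0471 and 1.58% ± 0.0363 on the same days. The tRNA rows together took 0.0291% ± 0.00113, 0.0361% ± 0.00450 and 0.0377% ± 0.00294. The rRNAs therefore made up 75.2% ± 3.32 of the mitochondrial counts at day 5 and 83.1% ± 2.17 at day 11. The ratio of rRNA to mRNA counts was 3.17 ± 0.589 at day 5, 4.48 ± 0.910 at day 7 and 5.09 ± 0.733 at day 11.

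Gene by gene, 17 of the 37 genes rose and 1 fell from day 5 to day 7 (edgeR quasi-likelihood test, adjusted p under 0.05 over all genes, 9 unirradiated libraries), where 21.6% of all 18442 genes tested were called in either direction, 12% higher and 9.62% lower. From day 5 to day 11, 23 rose and 2 fell, beside 41.3% of all genes, 21.3% higher and 20.1% lower. From day 7 to day 11, 7 rose and 2 fell, beside 21.2% of all genes, 9.57% higher and 11.7% lower. The median log2 fold change of the 37 genes was 0.41 at day 7 and 0.76 at day 11 against day 5, whereas the median over all genes tested was 0.04 and 0.06.

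Both rRNAs rose. mt-Rnr1, the 12S rRNA, was counted at 8150, 7907 and 11512 CPM on day 5, at 16922, 19309 and 18766 CPM on day 7 and at 26568, 23292 and 25683 CPM on day 11. The 3 days did not overlap. Its log2 fold change was 1.15 ± 0.14 (SE) from day 5 to day 7 (edgeR, adjusted p = 0.000152) and 1.60 ± 0.14 from day 5 to day 11 (edgeR, adjusted p = 2.39e-06). mt-Rnr2, the 16S rRNA, was counted at 22407, 19663 and 31179 CPM on day 5, at 31119, 40186 and 49588 CPM on day 7 and at 56655, 45667 and 62466 CPM on day 11. For mt-Rnr2 days 5 and 7 overlapped by a narrow margin, and days 7 and 11 overlapped as well. Its log2 fold change was 0.88 ± 0.21 at day 7 (edgeR, adjusted p = 0.00933) and 1.32 ± 0.21 at day 11 against day 5 (edgeR, adjusted p = 0.000297). From day 7 to day 11 mt-Rnr1 rose by 0.45 ± 0.13, but this call held in only 1 of 6 fits without 1 library. Adjusted p was 0.0817 and 0.0966 without the day 11 libraries of mTG11 and mTG14, and 0.101, 0.0532 and 0.0514 without the day 7 libraries of mTG11, mTG12 and mTG14. The log2 fold change of mt-Rnr2 over the same interval was 0.44 ± 0.20 (edgeR, adjusted p = 0.153), and with the culture as a block it passed (edgeR, adjusted p = 0.0114). Malat1, a nuclear noncoding RNA, moved with the rRNAs, from 0.148% ± 0.0298 of all counts at day 5 to 0.981% ± 0.371 at day 11 (log2 fold change 2.88 ± 0.26, edgeR, adjusted p = 4.09e-06). The 18S rRNA row Rn18s-rs5 held 6.13% ± 2.70 and 6.21% ± 0.841 of all counts on these days. The part of either in the mitochondrial result was not tested.

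Among the subunits of complex I, the NADH dehydrogenase that takes electrons into the chain, the genes went apart. ND4 rose from 1004, 948 and 1040 CPM at day 5 to 1581, 1628 and 1640 CPM at day 11, with a log2 fold change of 0.84 ± 0.08 (edgeR, adjusted p = 7.07e-06). ND2 rose by 0.49 ± 0.07 over this interval and ND5 by 0.74 ± 0.23. The call for ND5 was lost without the day 11 library of mTG14 (adjusted p = 0.104) or the day 5 library of mTG11 (0.0876) or mTG12 (0.0914). ND3 fell, from 629, 626 and 577 CPM on day 5 to 495, 464 and 406 CPM on day 7 and to 349, 386 and 324 CPM on day 11. The days did not overlap for ND3, and its log2 fold change was -0.65 ± 0.09 from day 5 to day 11 (edgeR, adjusted p = 8.26e-05). The smaller change of ND3 to day 7 (-0.28 ± 0.09) kept its call in 2 of 6 fits without 1 library, with adjusted p of 0.122 and 0.0871 without the day 5 libraries of mTG11 and mTG12 and 0.0631 and 0.126 without the day 7 libraries of mTG12 and mTG14. ND1 stood at 1209, 1271 and 1318 CPM on day 5, at 1520, 1327 and 1377 CPM on day 7 and at 1307, 1266 and 1184 CPM on day 11. It rose by 0.30 ± 0.07 to day 7 (edgeR, adjusted p = 0.0108), and its difference between day 11 and day 5 was 0.13 ± 0.07 (edgeR, adjusted p = 0.175). ND4L differed by 0.41 ± 0.32 between day 11 and day 5, which did not pass. ND6 was the gene with the fewest counts, and its call at day 7 (1.65 ± 0.47) rested on values of 20.5, 10.7 and 5.66 CPM against 2.41, 7.22 and 3.42 CPM at day 5. Without the day 7 library of mTG11 it was 1.10 with an adjusted p of 0.108, and it was also lost without the day 5 library of mTG11 (0.0885) or mTG14 (0.0923).

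CYTB, the mitochondrial subunit of complex III, which passes electrons to cytochrome c, rose by 0.37 ± 0.08 to day 7 and by 0.54 ± 0.08 to day 11 (edgeR, adjusted p = 0.000162). All 3 subunits of complex IV, the cytochrome c oxidase that reduces oxygen, rose. COX1, its catalytic subunit, was counted at 1348, 1296 and 1465 CPM on day 5, at 2371, 2455 and 2471 CPM on day 7 and at 3499, 3835 and 3791 CPM on day 11. The days were far apart relative to the spread within a day, and the log2 fold changes were 0.98 ± 0.08 (edgeR, adjusted p = 2.17e-05) and 1.58 ± 0.09 (edgeR, adjusted p = 1.00e-07). COX2 rose by 0.70 ± 0.07 and COX3 by 0.70 ± 0.08 to day 11. Of the 2 subunits of complex V, the ATP synthase, ATP6 rose by 0.71 ± 0.07 (edgeR, adjusted p = 1.12e-05). ATP8 stood at 114, 129 and 278 CPM at day 5 and at 243, 232 and 219 CPM at day 11, and the day 5 library of mTG14 lay above all day 11 libraries. Its difference was 0.55 ± 0.32 (edgeR, adjusted p = 0.194), and with the culture as a block 0.67 (edgeR, adjusted p = 0.0244).

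**Figure D2:**
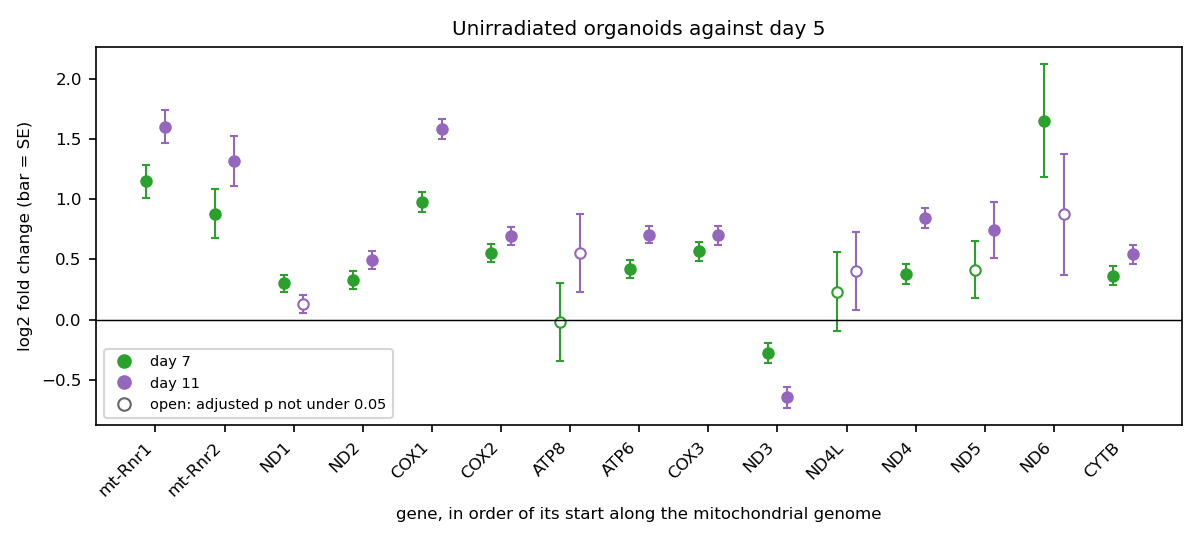
Log2 fold change of the rRNA and protein-coding genes at day 7 and at day 11 against day 5 in unirradiated organoids, with the SE as bars, in the order of the genes along the mitochondrial genome. Filled points passed the edgeR test. mt-Rnr1, mt-Rnr2 and COX1 show the highest values at day 11, and ND3 lies below 0 on both days.

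The make-up of the mRNA pool changed with time, a measure that does not depend on the other genes of a library. As a percent of the counts of the 13 protein-coding genes, COX1 made up 13.1, 12.7 and 13.1 at day 5, 17.3, 19.0 and 19.2 at day 7 and 22.5, 23.7 and 24.3 at day 11. ND1 went the other way, from 12.0% ± 0.419 (SD, n = 3) at day 5 to 10.7% ± 0.408 at day 7 and 7.94% ± 0.432 at day 11. ND3 went from 5.80% ± 0.543 to 3.45% ± 0.259 and 2.24% ± 0.156. For these 3 genes no 2 days overlapped. The shares of a pool depend on each other, so a higher share of COX1 goes with lower shares elsewhere in the pool. When the library sizes were set to the summed counts of the 13 genes, a scale chosen after seeing the data, 39.9% of all genes were called between days 5 and 7, 57.7% between days 5 and 11 and 28.4% between days 7 and 11. Relative to the pool, COX1 rose by 0.86 ± 0.08 from day 5 to day 11 (edgeR, adjusted p = 1.37e-06). ND3 fell by 1.37 ± 0.10 relative to it (edgeR, adjusted p = 1.82e-07), ND1 by 0.60 ± 0.08 and ND2 by 0.23 ± 0.08. In the gene by gene test above, ND1 was not called between these days and ND2 rose. Both rRNAs rose relative to the mRNAs on this scale, mt-Rnr1 by 0.88 ± 0.12 and mt-Rnr2 by 0.60 ± 0.19. CYTB, COX2, COX3, ATP6, ND4 and ND5 were not called on this scale between these days.

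**Figure D3:**
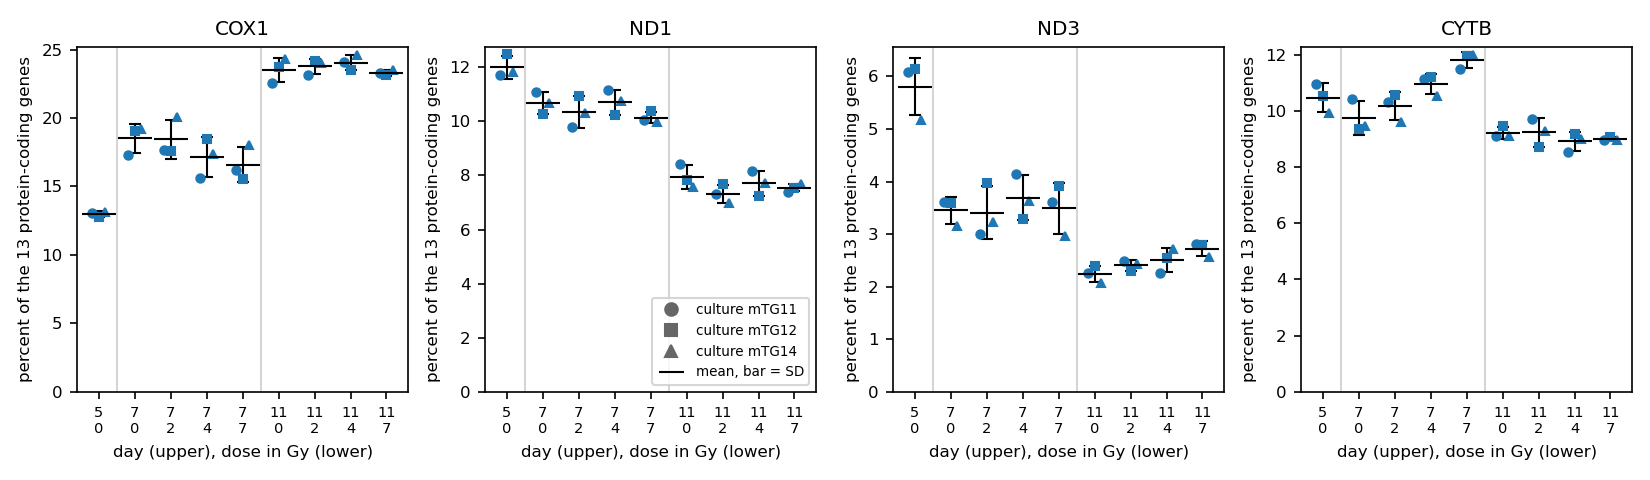
COX1, ND1, ND3 and CYTB as a percent of the counts of the 13 protein-coding genes in each library, by day and dose, with the mean and SD of each group. COX1 steps up and ND1 and ND3 step down with each day at all doses, and CYTB climbs with dose at day 7, from a mean of 9.75% at 0 Gy to 11.8% at 7 Gy.

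Among the tRNA rows, 6 of 22 rose from day 5 to day 7, beside 12% of all genes called higher. Of these 6, TrnI kept its call in 0, TrnM in 1 and TrnS2 in 2 of 6 fits without 1 library. From day 5 to day 11, 13 of 22 rose and 1 fell, beside 21.3% higher and 20.1% lower of all genes. TrnD, the aspartate tRNA whose sequence is shown above, went from 19.2, 22.7 and 23.0 CPM at day 5 to 54.3, 63.6 and 60.8 CPM at day 11, with a log2 fold change of 1.60 ± 0.11 (edgeR, adjusted p = 5.38e-07). TrnL1, a leucine tRNA, went from 94.1, 108 and 98.3 CPM to 59.5, 58.1 and 58.3 CPM, with a log2 fold change of -0.62 ± 0.09 (edgeR, adjusted p = 0.000151). Neither tRNA overlapped between these days. TrnD followed COX1, its neighbour upstream beyond TrnS1, in direction, and TrnL1 differed in direction from mt-Rnr2, which it directly follows. The other tRNA rows with a mean of at least 10 CPM gave TrnV 1.08 ± 0.15, TrnP 1.44 ± 0.29, TrnA 1.02 ± 0.30, TrnG 0.80 ± 0.23, TrnI 0.74 ± 0.18 and TrnM 0.51 ± 0.16 from day 5 to day 11, all of which passed. Without 1 library, TrnM kept its call in 2 of 6 fits and TrnA in 5 of 6. TrnT differed by -0.04 ± 0.18. The remaining 13 tRNA rows averaged 0.404 to 9.18 CPM, and of these TrnC, TrnE, TrnF, TrnK, TrnS1 and TrnS2 were called higher at day 11. Without 1 library TrnC kept its call in 6 of 6 fits, TrnS2 in 4, TrnE and TrnS1 in 3 and TrnF and TrnK in 2, and DESeq2 did not call TrnE, TrnF, TrnK or TrnS1 (adjusted p of 0.0773, 0.161, 0.171 and 0.0745).

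At day 7 the total mitochondrial share of each irradiated group overlapped that of 0 Gy, while the protein-coding genes stood higher at 7 Gy. The share of all mitochondrial genes was 9.01%, 4.47% and 7.89% at 2 Gy, 5.35%, 6.26% and 6.65% at 4 Gy and 8.48%, 6.85% and 8.77% at 7 Gy. At 4 Gy it lay below 0 Gy in 3 of 3 cultures, with a ratio of means of 0.843, and the ratio was 0.987 at 2 Gy and 1.11 at 7 Gy. The 2 Gy libraries of mTG11 and mTG12 were the highest and the lowest of day 7. The protein-coding genes took 1.37%, 1.29% and 1.29% at 0 Gy, 1.60%, 1.22% and 1.41% at 2 Gy, 1.36%, 1.54% and 1.44% at 4 Gy and 1.53%, 1.54% and 1.72% at 7 Gy. The 0 Gy and 7 Gy libraries did not overlap, with a ratio of means of 1.21.

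At 2 Gy and at 4 Gy, 0 of 37 genes were called at day 7, beside 0.124% and 1.63% of all 19346 genes tested by edgeR. Of all genes, 0.119% were called higher and 0.00517% lower at 2 Gy, and 0.972% higher and 0.656% lower at 4 Gy. DESeq2 also called 0 at both doses. By edgeR, 0 and 2 of the 37 genes had an unadjusted p under 0.05, beside 1629 and 2902 of all 19346 genes. At 7 Gy 2 genes rose and none fell, a share close to the 6.95% of all genes called, 3.2% higher and 3.75% lower. The median log2 fold change of the 37 genes was 0.21. CYTB stood at 1431, 1207 and 1219 CPM at 0 Gy, 1654, 1289 and 1358 CPM at 2 Gy, 1512, 1723 and 1522 CPM at 4 Gy and 1754, 1842 and 2067 CPM at 7 Gy. All 7 Gy libraries lay above all libraries of the lower doses, and the log2 fold change against 0 Gy was 0.55 ± 0.10 (edgeR, adjusted p = 0.00610). ND4 went from 1315, 1128 and 1072 CPM to 1478, 1620 and 1771 CPM, with a log2 fold change of 0.46 ± 0.11 (edgeR, adjusted p = 0.0254). The ND4 call was lost without mTG12 or mTG14 at 0 Gy (adjusted p = 0.0797 and 0.0989) or at 7 Gy (0.0540 and 0.0955), which leaves 1 gene called, whereas CYTB kept its call in all 6 such fits. With the culture as a block 4 genes were called, CYTB, ND4, ATP6 (0.30, edgeR, adjusted p = 0.0122) and ND3 (0.28, edgeR, adjusted p = 0.0278), and DESeq2 called the same 4. Of all 19346 genes, the block called 2206 and DESeq2 1224. COX2 differed by 0.31 ± 0.10, COX3 by 0.20 ± 0.10, ND2 by 0.24 ± 0.10, ND1 by 0.19 ± 0.08 and COX1 by 0.12 ± 0.13, none of which passed. The rRNAs differed by 0.21 ± 0.26 (mt-Rnr1) and 0.07 ± 0.24 (mt-Rnr2), an error too wide to show a difference of the size seen for CYTB. Calcb, a calcitonin family gene listed as a C cell marker and named here after its values were seen, averaged 26.4 CPM at 0 Gy and 83.7 CPM at 7 Gy (log2 fold change 1.66, edgeR, adjusted p = 0.000182), while Calca averaged at most 0.682 CPM in any group. Of the skeletal muscle markers 0 of 8 were called, beside 6.95% of all genes. These markers summed to 80.6 CPM ± 35.3 at 0 Gy and 126 CPM ± 52.3 at 7 Gy. Their part in the result was not tested.

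At day 11 the irradiated groups had lower means than 0 Gy. The share of all counts on the mitochondrial genome was 6.73%, 7.89% and 9.39% at 2 Gy, 8.93%, 7.66% and 6.74% at 4 Gy and 7.32%, 7.21% and 8.65% at 7 Gy, below the unirradiated library of the same culture in 3 of 3 cultures at each dose. The groups overlapped, with means of 8.00% ± 1.33 (SD, n = 3), 7.78% ± 1.10 and 7.73% ± 0.799 against 9.63% ± 0.961. For the protein-coding genes no irradiated group overlapped 0 Gy. They took 1.55%, 1.62% and 1.56% at 0 Gy, 1.35%, 1.30% and 1.38% at 2 Gy, 1.34%, 1.54% and 1.28% at 4 Gy and 1.12%, 1.20% and 1.28% at 7 Gy. The ratio of means to 0 Gy was 0.852, 0.878 and 0.761 in order of dose.

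At 7 Gy, 9 genes fell at day 11 and none rose, beside 1.52% of all 19901 genes called in either direction, 1.06% higher and 0.462% lower. They were ND1, ND2, ND4, ND5, CYTB, COX1, ATP6, TrnI and TrnV, and the median over the 37 genes was -0.47 where that over all genes was 0.01. ND1 went from 1307, 1266 and 1184 CPM to 829, 906 and 984 CPM, with a log2 fold change of -0.50 ± 0.09 (edgeR, adjusted p = 0.0161). ND2 went from 1730, 1614 and 1550 CPM to 1117, 1103 and 1299 CPM, with a log2 fold change of -0.51 ± 0.10 (edgeR, adjusted p = 0.0210). ND5 went from 574, 534 and 749 CPM to 316, 292 and 411 CPM, with a log2 fold change of -0.91 ± 0.17 (edgeR, adjusted p = 0.0185). COX1 went from 3499, 3835 and 3791 CPM to 2603, 2772 and 3007 CPM, with a log2 fold change of -0.45 ± 0.09 (edgeR, adjusted p = 0.0286). CYTB, at -0.47 ± 0.10, went from 1416, 1534 and 1419 CPM to 1002, 1090 and 1150 CPM. None of these 5 genes overlapped between 0 and 7 Gy, which is no further support, as they were taken from those called on the same libraries. ND4 was at -0.47 ± 0.10, ATP6 at -0.49 ± 0.10, TrnI at -0.85 ± 0.18 and TrnV at -0.49 ± 0.10. Among those not called were COX2 (-0.25 ± 0.10), COX3 (-0.23 ± 0.09), ND3 (-0.15 ± 0.09) and the rRNAs mt-Rnr1 (-0.29 ± 0.18) and mt-Rnr2 (-0.37 ± 0.18). ATP8 (-0.79 ± 0.22) and ND4L (-0.78 ± 0.24) passed with the culture as a block, with adjusted p of 0.0166 and 0.0126 (edgeR), and ATP8 also passed in DESeq2 (adjusted p = 0.0174).

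The count of 9 depended on single libraries. It was 0 without the 0 Gy library of mTG14 or the 7 Gy library of mTG11 or mTG12, 1 without the 0 Gy library of mTG12, 2 without that of mTG11, and 6 without the 7 Gy library of mTG14. Over all genes the calls in these fits dropped as well, to between 60 and 165 from 302. Adjusted p for the mitochondrial genes that lost their call in these fits reached at most 0.134 (TrnI). The direction of these 9 genes did not change in any of the fits. At 2 Gy and 4 Gy edgeR called 0 of 37 genes at day 11, beside 0% and 0.00502% of all genes. Of the 37, 18 and 13 had an unadjusted p under 0.05 in edgeR, beside 1157 and 1500 of all 19901 genes. The log2 fold change was below 0 for 34 and 33 of the 37, where the median over all genes was -0.009 at both doses. The 37 genes share library totals, so these counts are not independent. DESeq2 called 0 at 2 Gy and 2 at 4 Gy, ND5 (-0.81, DESeq2, adjusted p = 0.00550) and ATP8 (-0.88, DESeq2, adjusted p = 0.0286). With the culture as a block, edgeR called 3 genes lower at 4 Gy, ND5, ATP8 and TrnE. Of all 19901 genes, the block called 238 at 4 Gy and DESeq2 37. The markers of multiciliated cells summed to 45.6 CPM ± 17.1 at 0 Gy and to 17.9 ± 7.13, 11.3 ± 5.73 and 12.6 ± 6.52 CPM at 2, 4 and 7 Gy. Of the 4, 0 were called at 2 and 4 Gy and 2 were lower at 7 Gy, beside 0.462% of all genes. Those of skeletal muscle summed to 16.9 ± 6.04 CPM at 0 Gy and 51.2 ± 23.6 CPM at 7 Gy, where 0 of 7 tested were called, beside 1.52% of all genes. Calcb averaged 3.12 CPM at 0 Gy and 11.8 CPM at 7 Gy (log2 fold change 1.87, edgeR, adjusted p = 0.0317). Malat1 stood at 0.981% ± 0.371 of all counts at 0 Gy and at 0.602% ± 0.103 at 7 Gy. The part of these in the result was not tested.

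**Figure D4:**
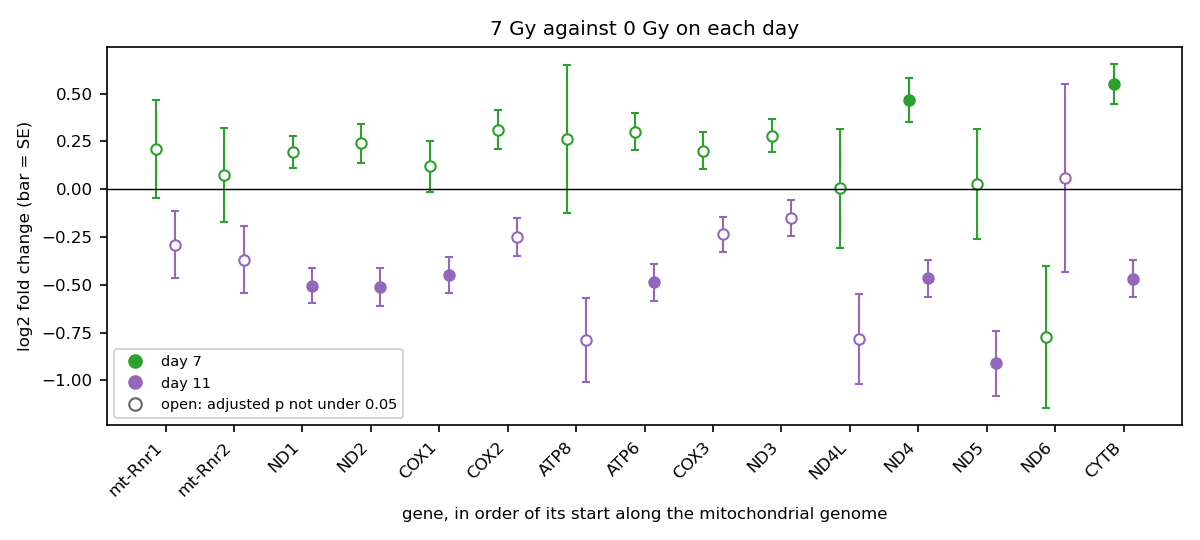
Log2 fold change of the rRNA and protein-coding genes at 7 Gy against 0 Gy on day 7 and on day 11, with the SE as bars, in genome order. Filled points passed the edgeR test. The day 7 points of CYTB and ND4 lie above 0 and their day 11 points below it, and ND1, ND2, COX1, ATP6 and ND5 lie below 0 at day 11.

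The response to 7 Gy differed between the days for 6 genes, in a single fit of the 24 libraries of days 7 and 11, where 3.01% of all 21928 genes tested were called, 2.2% higher and 0.807% lower. The fold change at day 11 minus that at day 7 was -0.99 ± 0.14 for CYTB (edgeR, adjusted p = 0.000186), -0.90 ± 0.15 for ND4 (edgeR, adjusted p = 0.000945), -0.76 ± 0.13 for ATP6 (edgeR, adjusted p = 0.00114), -0.72 ± 0.14 for ND2 (edgeR, adjusted p = 0.00340), -0.67 ± 0.12 for ND1 (edgeR, adjusted p = 0.00155) and -0.53 ± 0.14 for COX2 (edgeR, adjusted p = 0.0448). All 6 are protein-coding, and no gene was called in the other direction. The first 5 kept their calls in each of 12 fits without 1 library, while COX2 kept its call in 1 of 12, with adjusted p of up to 0.123 and differences of -0.46 to -0.57. With the culture as a block COX1 (-0.53, edgeR, adjusted p = 0.0271) and ND3 (-0.40, edgeR, adjusted p = 0.0424) were called as well. For the rRNAs the difference was -0.47 ± 0.34 (mt-Rnr1) and -0.41 ± 0.32 (mt-Rnr2), neither of which passed.

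The share of single genes in the mRNA pool also differed between doses. At day 7 CYTB took 10.4%, 9.35% and 9.47% of the pool at 0 Gy and 11.5%, 12.0% and 12.0% at 7 Gy, with no overlap, and ND4 took 8.89% ± 0.647 and 10.2% ± 0.430. At day 11 COX1 took 23.5% ± 0.889 at 0 Gy and 23.3% ± 0.186 at 7 Gy. COX3 took 9.72% ± 0.539 at 0 Gy and 11.2% ± 0.171 at 7 Gy, COX2 11.1% ± 0.274 and 12.7% ± 0.490, and ND3 2.24% ± 0.156 and 2.72% ± 0.136, each without overlap. Lower at 7 Gy without overlap were ND5 (3.93% ± 0.777 and 2.82% ± 0.386) and ATP8 (1.47% ± 0.0865 and 1.14% ± 0.185). By smaller margins, so were ATP6 (9.99% ± 0.118 and 9.63% ± 0.0253) and CYTB (9.23% ± 0.211 and 9.01% ± 0.0713). The shares of a pool depend on each other, so these differences are not independent. How often such small groups do not overlap was not counted over other genes. When library sizes were set to the mRNA pool, 10.8% of all genes were called for 7 Gy at day 7, 26.1% at day 11 and 28.5% for the difference between days. At 2 Gy and 4 Gy 0 of 37 genes were called on that scale, beside 0.0362% and 1.03% of all genes at day 7 and 0% and 0.0352% at day 11. The only protein-coding gene called at either day for 7 Gy was ND5 at day 11 (-0.48 ± 0.15, edgeR, adjusted p = 0.0313). No protein-coding gene was called for the difference between days on that scale.

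The genes differed in how much replicate libraries varied. The SD of log2 CPM within groups, pooled over the 9 groups, was 0.0858 to 0.142 for ND1, ND2, ND3, ND4, CYTB, COX1, COX2, COX3 and ATP6. It was 0.370 for ND5, 0.427 for ND4L, 0.529 for ATP8 and 0.611 for ND6, and 0.330 and 0.322 for mt-Rnr1 and mt-Rnr2. ATP8 and ND4L are the reading frames that come first on their shared mRNAs, and ND4L and ND6 had few counts. The deviation of a library from its group mean in ATP8, ND5 and ND4L followed that in the rRNAs, with Pearson's r of 0.88, 0.85 and 0.79 over 27 libraries. For ATP6 and ND4, on the same mRNAs as ATP8 and ND4L, r was 0.45 and 0.12, and for ND6 it was -0.07. Among the genes with a small spread r ranged from -0.51 for ND3 to 0.66 for COX1 and 0.69 for ND2. These r values describe libraries that share totals and cultures. The 2 Gy libraries of mTG11 and mTG12 at day 7 lie at the far ends of these relations, and r was not computed without them. For example, ATP8 in the 2 Gy libraries of day 7 was counted at 356, 78.5 and 177 CPM, ND5 at 859, 275 and 464 CPM and mt-Rnr1 at 25917, 9933 and 20907 CPM, while ATP6 was at 1492, 1201 and 1454 CPM. The culture mTG11 was highest and mTG12 lowest for all 4 genes in that group, with a wide spread for the first 3.

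**Figure D5:**
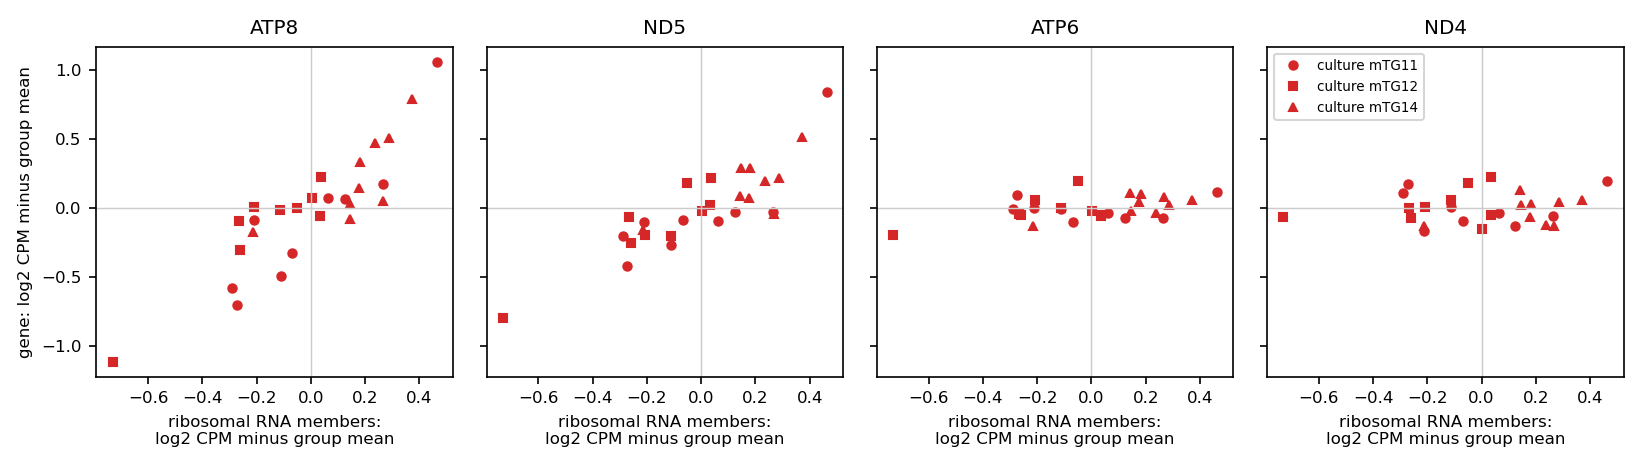
Deviation of each of 27 libraries from its group mean in log2 CPM, for the rRNAs summed (horizontal axis) and for ATP8, ND5, ATP6 and ND4 (vertical axes), with symbols for the cultures. ATP8 and ND5 spread along the diagonal, and ATP6 and ND4 stay close to 0.

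Some mitochondrial sequence is repeated in the nuclear genome, where a read cannot always be told apart. In GRCm39 a stretch of 4654 bases at chr1:24650616-24655269 was 99.936% identical to positions 6390 to 11042 of the mitochondrial genome, from the end of COX1 through most of ND4. The last 75 annotated bases of 7 protein-coding genes (COX1, COX2, COX3, ATP6, ATP8, ND3 and ND4L) lay wholly in a nuclear copy of at least 99% identity. Those of ND1, ND2, ND5, ND6 and CYTB did not. For ND4, 31 of the last 75 bases lay in such a copy, and 63.6% of the gene. The whole of TrnD lay in one as well. The table held separate rows for 2 genes of that kind. The row Gm10925, whose RefSeq synonym is Atp6, held 0.869 to 0.899 times the counts of ATP6 in every library, and Gm10222, in the chr1 copy of ND4L, held 1.14 to 1.34 times those of ND4L. Gm10925 moved as ATP6 did, with a log2 fold change at 7 Gy of -0.48 ± 0.10 at day 11 (edgeR, adjusted p = 0.0246). Counts of ATP6 and ND4L are therefore uncertain in level, and those of the other genes in these copies may be. Less similar copies covered other ends, with 97.362% identity on chromosome 2 over the end of ND2 and 93.034% on chromosome 4 over the ends of ND5 and CYTB. The part of nuclear copies in the changes was not tested.

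The nuclear partners of these genes went a different way with culture time. Of 78 nuclear respiratory chain subunits tested, 5 rose and 57 fell from day 5 to day 11, with a median log2 fold change of -0.53, beside 21.3% higher and 20.1% lower of all genes. From day 5 to day 7, 3 rose and 36 fell, beside 12% higher and 9.62% lower of all genes. Their summed level was 17816 CPM ± 380 (SD, n = 3) on day 5, 13989 CPM ± 261 on day 7 and 12100 CPM ± 700 at day 11, while 8 of 13 mitochondrial mRNAs rose and 1 fell between days 5 and 11. Among subunits averaging at least 10 CPM, those called with the largest change were Cox5b of complex IV (-1.43 ± 0.09) and the ATP synthase subunits Atp5g1 (-1.21 ± 0.10), Atp5k (-1.13 ± 0.09) and Atp5g3 (-1.10 ± 0.08). Of 78 mitochondrial ribosomal protein genes, 1 rose and 43 fell from day 5 to day 11, beside the same shares of all genes, with a median of -0.36, while both mitochondrial rRNAs rose. Whether mitochondrial and nuclear genes differed as sets was not tested.

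Among 37 tested factors of mitochondrial RNA processing and stability, 1 rose and 15 fell from day 5 to day 11. Of all genes, 41.3% were called, 21.3% higher and 20.1% lower. The median log2 fold change of this list was -0.44, where that over all genes was 0.06. Rexo2, a nuclease of short RNAs, fell by 1.60 ± 0.12 and the pseudouridine synthase Pus1 by 0.90 ± 0.17. Lrpprc, which stabilizes mitochondrial mRNAs, fell by 0.88 ± 0.14, and its partner Slirp was at -0.59, also called. The tRNA modifier Trit1 rose by 0.86 ± 0.27. Of 26 genes of mitochondrial DNA maintenance and transcription, 5 rose and 2 fell, a lower share than that of all genes. The nucleotide carrier Slc25a36 rose by 1.96 ± 0.14, and the nucleoside kinases Tk2 and Dguok rose by 0.89 ± 0.19 and 0.72 ± 0.17. Polrmt, the mitochondrial RNA polymerase, was at -0.76 and Polg, the DNA polymerase, at -0.43, both called, whereas the packaging and transcription factor Tfam (0.19) and the helicase Twnk (-0.09) were not. Of 11 biogenesis regulators, 1 rose and 7 fell, among them Ppargc1b (-0.60 ± 0.20), Gabpa (-0.58 ± 0.16), Pprc1 (-0.49 ± 0.15) and Nrf1 (-0.47 ± 0.15). Ppargc1a, a coactivator of mitochondrial biogenesis, was at 1.55 and not called. The skeletal muscle markers, a tissue rich in mitochondria, went from 295 CPM ± 139 at day 5 to 16.9 CPM ± 6.04 at day 11. The multiciliated cell markers went from 5.42 CPM ± 3.33 to 45.6 CPM ± 17.1 over the same days, with 4 of 4 called higher, and the leukocyte markers from 10.5 CPM ± 4.56 to 48.5 CPM ± 14.7, with 1 called higher and Cd3e at 0 counts in every library. The brown fat markers lay between 2.98 and 9.59 CPM in every group mean. The part of these cells in the mitochondrial share was not tested.

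With dose the nuclear lists showed few calls. At day 11 after 7 Gy, 0 genes of any of the 5 nuclear mitochondrial lists were called, beside only 1.52% of all genes. The median of the respiratory chain subunits was 0.08. At day 7 after 7 Gy, Ndufa6 (-0.45 ± 0.09), Ndufv3 (-0.44 ± 0.08) and Uqcrh (-0.40 ± 0.08) fell, and Ndufb6 (0.42 ± 0.11) rose, of 78 subunits, of which 2 rose and 3 fell in all, a share close to the 6.95% of all genes called. Of 11 biogenesis regulators, 1 rose and 2 fell at that time, the coactivator Ppargc1b by 1.13 ± 0.24. Of 26 genes of mitochondrial DNA maintenance and transcription, 1 rose and 0 fell. The same counts were found among 37 factors of RNA processing and 78 mitochondrial ribosomal proteins. Of all genes, 3.2% were called higher and 3.75% lower. For the difference between days in the response to 7 Gy, Ndufv3 (0.54 ± 0.13), Uqcrh (0.49 ± 0.12) and Atp5o (0.43 ± 0.10) were called in the direction opposite to that of the 6 mitochondrial genes, with 3 higher and 1 lower of 79 subunits, beside 3.01% of all genes called.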

How the data were processed

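Libraries were prepared by the authors with Smart3SEQ, sequenced as single reads and aligned to GRCm39. The processing notes name STAR and edgeR. The counting tool, annotation, strand setting and handling of molecular identifiers are not given in the sources used here. The deposited values are estimated counts per gene, of which 56.3% of the nonzero ones were whole, without normalization. They were rounded for tests, since the design had assumed whole counts. Because reads can be split between similar or overlapping genes, levels of such genes are uncertain. The limit of 3 counts covers counting error only, whereas the SD and SE values include the spread between the libraries of a group.

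CPM and shares were taken from the deposited estimated counts, divided by the total of each library. edgeR 4.0.16 in R 4.3.3 was run with TMM factors, genes with at least 10 counts summed, quasi-likelihood tests and adjustment by Benjamini-Hochberg over all genes at 0.05, on the 9 unirradiated libraries, on 12 libraries for each day and on 24 libraries for the difference between days, and was tested on simulated data. DESeq2 1.42.0 was an alternative. Nuclear copies were found with blastn at a minimum identity of 90% against GRCm39 and gene positions taken from GENCODE vM39. Sequences were read from that genome.

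The 37 genes and all lists were chosen with earlier results of these data known. Named were the 13 mRNAs, the 2 rRNAs, tRNA rows with a mean of at least 10 CPM, per nuclear list up to 4 called genes with the largest change and a mean of at least 10 CPM, and 7 general factors; examples were taken from these. Columns were placed in groups by day and dose. The labels number the same mice in each group, and the column names carry 3 culture names that no source used here ties to a mouse. Libraries of a culture deviated together, with a mean correlation of 0.274 over 108 pairs, of which 107 were above 0.1, so the culture was used as a block in an alternative. The smallest chi-square per degree of freedom between replicates was 3.39 over 27 pairs, so no library was counted as a duplicate. Where replicates are technical, p-values measure only that spread. Some marker results are not reported here.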

Additional observations from a re-analysis of the deposited data

Results flagged for a closer look

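The fold change at 7 Gy was not the same on days 7 and 11, by the test of the difference itself, for CYTB (log2 -0.99), ND4 (-0.90), ATP6 (-0.76), COX2 (-0.53), ND2 (-0.72) and ND1 (-0.67), each with the 7 Gy libraries above 0 Gy on average at day 7 and below it at day 11 in CPM. Groups of 3 libraries were not searched for outlying samples.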

How the results depend on the processing

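With the culture as a replicate block, 4 of the 37 genes were called for 7 Gy at day 7 in place of 2, and 3 for 4 Gy at day 11 in place of 0. Calls over all genes moved too, to 2206 of 19346 in place of 1345 and to 238 of 19901 in place of 1. The block also gave 19, 26 and 11 calls for days 7 and 11 against day 5 and day 11 against day 7, 12 for 7 Gy at day 11 and 8 for the difference between days, and no call was lost. In the same order, 4607, 8049 and 4575 of all 18442 genes, 1296 of 19901 and 1153 of 21928 were called. Without a filter on low counts there were 3 calls for 4 Gy at day 7, 5 for 7 Gy at day 7, 3 for 2 Gy and 5 for 4 Gy at day 11, and 13 for the difference between days. In the same order, 1263 and 2211 of all 28428 genes, 267 and 465 of 29219 and 1234 of 31699 were called. DESeq2 called 4 for 7 Gy at day 7 and 2 for 4 Gy at day 11, beside 1224 of all 19346 genes and 37 of all 19901. Without TMM factors 11 were called between days 5 and 7, beside 4271 of all 18442 genes. Leaving out 1 library gave 1 to 2 calls for 7 Gy at day 7 and 0 to 6 at day 11. Over all genes these fits gave 705 to 1001 calls at day 7 and 60 to 165 at day 11. Over the protein-coding genes alone, the log2 ratio of the share was 0.32 at day 7 and 0.58 at day 11 against day 5, and 0.14 for 4 Gy at day 7, where all 37 genes gave 0.70, 1.11 and -0.25.

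Library sizes set to the 13 protein-coding genes were added after seeing the data. Of the 37 genes, 6 were called between days 5 and 7 and 10 between days 5 and 11. For 7 Gy at day 11 there were 3 calls, and for the difference between days 1. In the same order, 39.9%, 57.7%, 26.1% and 28.5% of all genes were called on this scale, which is made from the 13 genes themselves. On that scale signs turned at day 7 for ND1 (-0.17), ND2 (-0.14), ND4 (-0.089), CYTB (-0.10) and ATP6 (-0.048), at day 11 for ND1 (-0.60), ND2 (-0.23), CYTB (-0.18), COX2 (-0.029), COX3 (-0.025) and ATP6 (-0.020), and for the difference between days in ND1 (0.0033) and COX2 (0.15). These shifts follow from the scale itself. For the other changes the cause was not tested. With 3 libraries a group, the rRNAs, ATP8, ND5 and ND4L varied too much between replicates to show small differences.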
